A study of Mus musculus with 7 samples.

Results

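The liver carboxylesterases described here are 10 mouse genes, Ces1b, Ces1c, Ces1d, Ces1e, Ces1f, Ces1g, Ces2a, Ces2e, Ces3a and Ces3b, taken by gene symbol from a deposited count table of 14889 genes that holds 17 carboxylesterase entries. All 10 passed the filter on low counts, as did 13693 genes in all. The livers came from ApoE-/- mice on a C57BL/6 background, 4 months old, which lack apolipoprotein E and had been kept on Western diet during 3 months. The saline group had 4 mice and the PX-478 group had 3, dosed intraperitoneally at 40 mg/kg on a schedule the labels call bi-weekly. The Apoe deletion and the diet were common to both groups, so neither is a variable of the comparison. PX-478 is a small molecule used as an inhibitor of hypoxia-inducible factor 1 alpha, and the comparison asks which liver transcripts differ when it is given. Total RNA of whole flash-frozen liver was sequenced. The labels do not say how the animals were housed or the tissue batched, so each p-value reflects the variation among these 7 libraries, which may in part be technical. In whole liver, fewer cells of a type and less RNA per cell cannot be told apart.

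Carboxylesterases are serine hydrolases that cleave ester, thioester and amide bonds. In hepatocytes most of them sit in the lumen of the endoplasmic reticulum, where they activate or inactivate ester drugs and also hydrolyse stored triacylglycerol and cholesteryl esters. Mice carry many more Ces1 and Ces2 genes than humans, the result of tandem duplication, and several of the copies have overlapping substrates.

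Library sizes ran from 10285776 to 17257304 reads, and the members took between 0.393% and 0.614% of them. A count of 3 reads, used as the detection floor, corresponds to 0.188 to 0.26 CPM (reads scaled to library size, here by the trimmed mean of M-values, TMM), far below every member. Saline 3 lay apart on the first principal component, at 84.3 against -31.6 to 0.6 for the other libraries. PX-478 2 had the highest TMM factor, 1.286 against 0.888 to 1.052 elsewhere, and the lowest mitochondrial share of reads, 22.4% against 27.1% to 36.7%. Apoe had 1899 to 5378 reads in every library. The labels do not give the deleted part of that gene, so those reads check nothing about the genotype. The liver identity was checked on 8 hepatocyte markers, all of which were detected, with Alb between 221822 and 395840 reads per library. Their summed level was 37830 to 53360 CPM in saline and 34190 to 40400 CPM in PX-478. Of these 8 markers, 2 had higher and 6 lower values, with Ttr, the thyroxine carrier, at -0.57 and Serpina1b at -0.44 on the log2 scale. Whether this bears on the members was not tested.

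All members lie on chromosome 8 in 2 arrays 11.4 Mb apart (GRCm38, the assembly of mm10). The 6 Ces1 members fill 280.5 kb on the minus strand, from the end of Ces1b at 93056725 to the start of Ces1g at 93337209. The Ces2 and Ces3 members fill 359.9 kb on the plus strand, from Ces2a at 104734003 to Ces3b at 105093929. Ces1b spans 93056725 to 93080017 and Ces1d spans 93166072 to 93197804. Both have 14 exons and a transcript of 1964 and 2004 bases, respectively.

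The Ces1 genes with a promoter window share a short run of letters upstream of their start sites. The choice of members did not use it, and it was among several motifs searched in the same windows. RefSeq promoter windows of GRCm38.p6 were held for 7 members in 8 windows. Ces1d, Ces1f and Ces3a had no entry. The letters TTATGTAA, the D-box bound by PAR bZIP factors (searched on both strands in the 250 bases before each start), occurred in 269 of 32851 windows, 0.819%. They occurred in the windows of 4 members, Ces1b, Ces1c, Ces1e and Ces1g, and of the non-member Ces1a. These are the 5 Ces1 genes of the table that had a window, and the letters were not in the Ces2a, Ces2e and Ces3b windows. Their place differed, with the first base at -81 from the start in Ces1e, -198 in Ces1a and -232 in Ces1g. The genes are tandem copies, so they are not independent cases, and a match of letters is not a binding site. The 30 bases around each match are shown 5′ to 3′ on the gene's strand (minus), with the D-box in capitals, because they show how closely the copies match at it.
Ces1a: gggaaagagcTTATGTAAgatgttgttgtt
Ces1b: agggggagctTTATGTAAttatgctaattg
Ces1c: agggggagctTTATGTAAttatgctaattg
Ces1e: tgagagatatTTATGTAAgaagttgtttga
Ces1g: gggagaaacaTTATGTAAgatgttccttgg

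Ces1b and Ces1c, the closest pair among the Ces1 members, were identical over all 30 bases. The stretch lies at chr8:93080005-93080034 for Ces1b and chr8:93131358-93131387 for Ces1c. The D-box began 94 bases before the Ces1c start. RefSeq gives Ces1b a pair of starts 77 bases apart, and its D-box began 84 bases before the lower one and 7 bases before the upper one. The 250 bases before the upper Ces1b start (chr8:93080018-93080267) and before the Ces1c start (chr8:93131284-93131533), both minus strand, are printed to show how alike the flanks of these copies are. They were identical at 137 of 147 aligned bases (93.2%). The Ces1b window ends inside the D-box, so no capitals appear in it.
Ces1b: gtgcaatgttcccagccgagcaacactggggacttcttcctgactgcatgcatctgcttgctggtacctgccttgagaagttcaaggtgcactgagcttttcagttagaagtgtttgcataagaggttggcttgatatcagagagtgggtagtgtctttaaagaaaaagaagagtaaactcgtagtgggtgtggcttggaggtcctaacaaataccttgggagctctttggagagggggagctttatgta
Ces1c: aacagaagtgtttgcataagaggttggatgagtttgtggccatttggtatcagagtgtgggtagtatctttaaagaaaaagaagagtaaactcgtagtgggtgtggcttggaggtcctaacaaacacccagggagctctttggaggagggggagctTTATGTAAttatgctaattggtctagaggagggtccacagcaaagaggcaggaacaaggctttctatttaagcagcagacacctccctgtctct

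The core letters of the hypoxia response element, ACGTG, stood in 16.6% of all windows and in 0 of the 7 members' windows. The NRF2 core TGACNNNGC stood in 10.2% of all windows and in 0 of these 7. The nuclear receptor half-site AGGTCA stood in 14.0% of all windows and in 1 of the 7. CCAAT stood in 33.8% of all windows and in 5 of the 7. The TATA box letters TATAAA stood in 12.4% of all windows and, among members, in those of Ces1g and Ces3b. The HNF1 half-site GTTAAT stood in 6.43% of all windows and, among members, in that of Ces3b. These counts say only which letters lie in these short windows.

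Across the family, 0 of 10 members passed the test between PX-478 and saline at an adjusted p of 0.05 (edgeR quasi-likelihood, Benjamini-Hochberg over 13693 genes), where 0.0073% of all genes did (1 gene, Cfd, lower). At an unadjusted p under 0.05 in the same edgeR test, 4 members were higher (Ces1b, Ces1d, Ces1e and Ces1f), against 3.48% of all genes higher. 1 member, Ces2e, was lower, against 3.48% of all genes lower. DESeq2, run as an alternative, called 2 members higher, Ces1b (adjusted p = 0.00312) and Ces1d (adjusted p = 0.00386), where it called 0.309% of all genes higher. limma-voom called neither. The groups did not overlap for 3 members (8.59% of all genes), 2 higher (4.3% of all genes) and 1 lower (4.29% of all genes). The median log2 fold change was 0.12 over the 10 members and -0.0035 over all genes. Leaving out 1 library moved the members' median between 0.053 (without saline 4) and 0.35 (without PX-478 2). The count of 4 was 2 without saline 3, without saline 4 and without PX-478 1, and the count of 1 was 0 without saline 1 or PX-478 1.

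**Figure D1:**
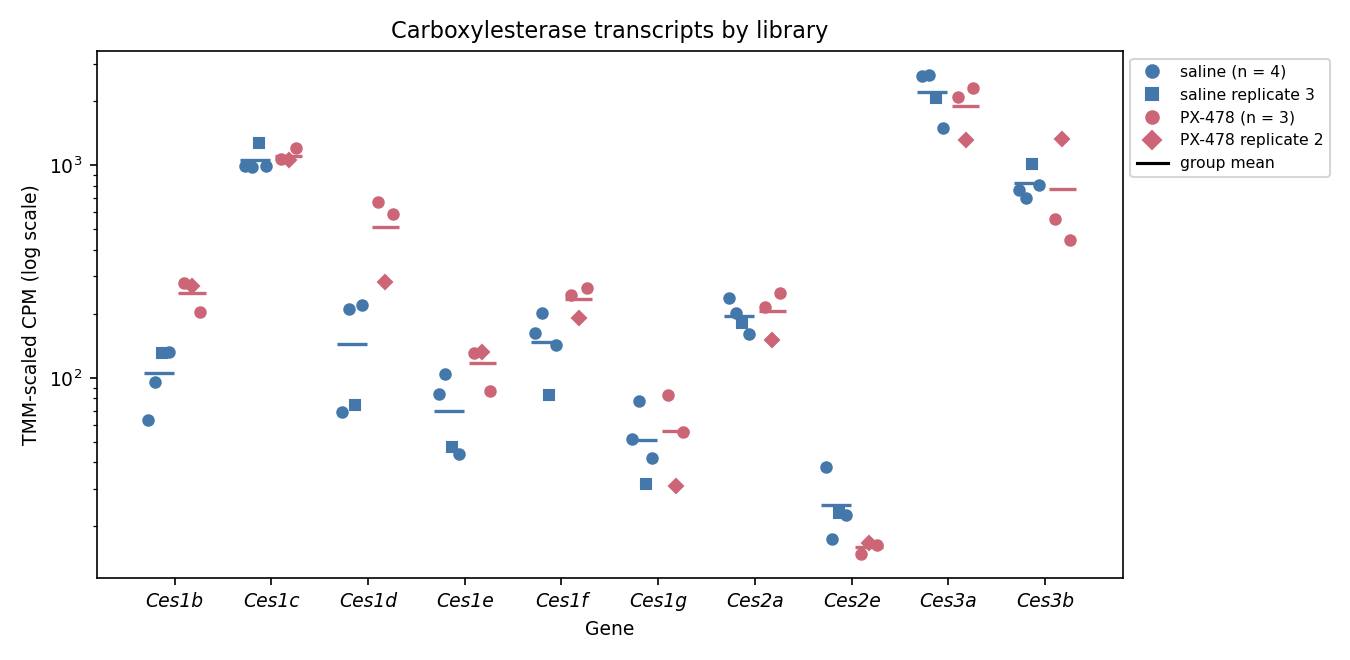
TMM-scaled CPM (log axis) of each member in each library, with saline in blue, PX-478 in red, saline 3 as squares, PX-478 2 as diamonds and group means as bars. The PX-478 points lie above all saline points for Ces1b and Ces1d and below all of them for Ces2e, and the groups overlap for the other 7 genes.

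In the Ces1 array all 6 members had a positive log2 fold change, with a median of 0.70, and Ces1d and Ces1b differed most. Their summed level was 1427 to 1672 CPM in saline and 1964 to 2478 CPM in PX-478, without overlap. Ces1d, also known as triacylglycerol hydrolase, acts in the endoplasmic reticulum on triacylglycerol that feeds VLDL assembly. It stood at 69.0, 211, 74.8 and 221 CPM in saline 1 to 4, and PX-478 1 to 3 had 673, 283 and 587 CPM. The saline livers fell into a low and a high pair, and the lowest PX-478 liver was above the high pair. The means were 144 ± 83.4 CPM (SD, n = 4) and 514 ± 205 CPM (SD, n = 3), a ratio of 3.57. On the log2 scale the difference was 1.84, with an SE of 0.49 and a 95% interval of 0.71 to 2.96, and edgeR gave an unadjusted p of 0.0053 and an adjusted p of 0.508.

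Ces1b stood at 63.3, 95.4, 131 and 132 CPM in the saline livers, and the PX-478 livers had 279, 272 and 204 CPM. Every PX-478 value was above every saline value, and the spread within each group was narrower than for Ces1d. The means were 105.5 ± 32.9 (SD, n = 4) and 251 ± 41.2 CPM (SD, n = 3), a ratio of 2.38. Its log2 fold change was 1.25 (SE 0.25, 95% interval 0.71 to 1.80), with an unadjusted p of 0.00028 and an adjusted p of 0.195 in edgeR. Over 21 alternative settings the log2 fold change stayed between 1.07 and 1.43 for Ces1b and between 1.59 and 2.28 for Ces1d. The authors' deposited table gives log2 fold changes of 1.25 for Ces1b and 1.84 for Ces1d, with unadjusted p-values of 2.7e-06 and 5.93e-05. How the count columns entered that test is unstated in the sources used here.

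Ces1e and Ces1f showed smaller differences with overlapping groups. Ces1e, called egasyn, holds beta-glucuronidase in the endoplasmic reticulum. It stood at 83.6, 105, 47.5 and 44.0 CPM in the saline livers, and the treated ones had 131, 133 and 86.7 CPM. PX-478 3 lay among the higher saline values. Its log2 fold change was 0.74 (SE 0.30, unadjusted p = 0.0285, adjusted p = 0.662 in edgeR). Ces1f, a lipase close to Ces1d in function, stood at 163, 203, 82.9 and 143 CPM in the saline livers, and PX-478 livers had 246, 192 and 264 CPM. PX-478 2 was lower than saline 2, so the groups overlapped. Its log2 fold change was 0.66 (SE 0.26, unadjusted p = 0.0268, adjusted p = 0.654 in edgeR).

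Ces1c and Ces1g differed little between the groups. Ces1c encodes the esterase that mouse liver secretes into plasma. It stood at 996, 981, 1269 and 993 CPM in the saline livers, and the treated ones had 1066, 1054 and 1200.4 CPM. Saline 3 was the highest liver, followed by PX-478 3, and the groups overlapped. The log2 fold change was 0.063, with a 95% interval of -0.36 to 0.49 (SE 0.20, unadjusted p = 0.753 in edgeR). Ces1g, whose loss in mice raises liver fat, stood at 51.4, 77.6, 31.7 and 42.2 CPM in the saline livers, and PX-478 livers had 83.0, 30.9 and 55.3 CPM. Both the highest and the lowest liver were treated, and the log2 fold change was 0.16 (95% interval -0.63 to 0.94). Without PX-478 1 it was -0.23 and without saline 3 it was -0.015.

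**Figure D2:**
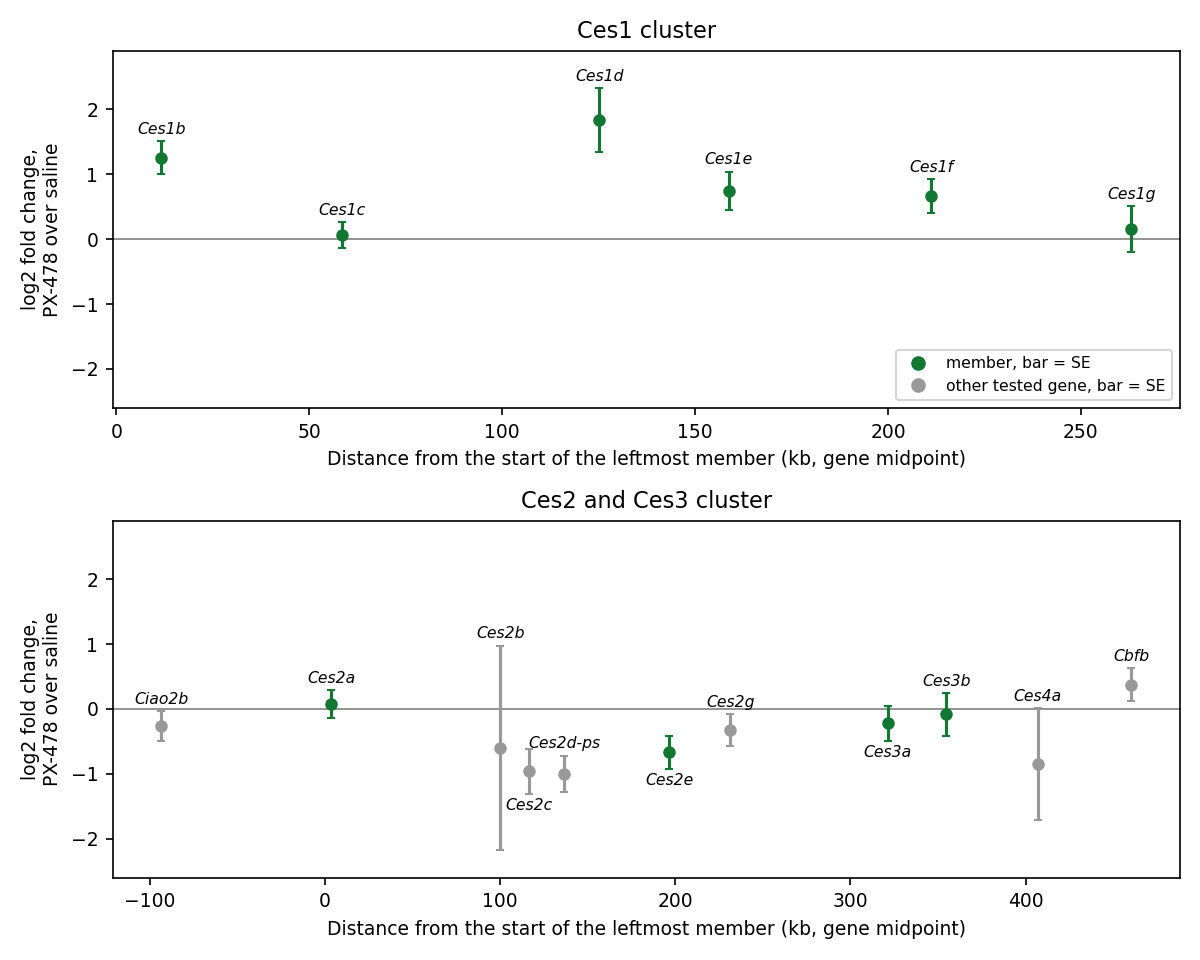
Log2 fold change (PX-478 relative to saline) with its SE (bars) for the genes of the Ces1 array (upper panel) and of the Ces2 and Ces3 array (lower panel), against distance from the leftmost member in kb. Members are green and other tested genes grey. The Ces1 points lie at or above 0 and those of the other array mostly below it.

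In the other array, Ces2e was lower under PX-478. Ces2e, a hydrolase able to cleave pyrethroids, stood at 37.9, 17.5, 23.0 and 22.7 CPM in the saline livers, and the treated ones had 14.8, 16.6 and 16.3 CPM. All treated livers were below all saline livers, but by less than 1 CPM against saline 2, which had 202 Ces2e reads. Between the 2 count columns of a sample, Ces2e differed by up to 13.4%, the most of any member. The means were 25.3 ± 8.78 (SD, n = 4) and 15.9 ± 0.960 CPM (SD, n = 3). On the log2 scale the difference was -0.67, with an SE of 0.26 and a 95% interval of -1.22 to -0.11, and edgeR gave an unadjusted p of 0.0222 and an adjusted p of 0.643. Without saline 1 the log2 fold change of Ces2e was -0.40 (unadjusted p = 0.0912 in edgeR). Without PX-478 1 it was -0.61 (unadjusted p = 0.0671 in edgeR). Ces2a, a liver hydrolase of diacylglycerol and triacylglycerol, stood at 237, 201, 181 and 161 CPM in the saline livers, and PX-478 livers had 216, 151 and 250.3 CPM. Its log2 fold change was 0.077 (95% interval -0.39 to 0.55).

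Ces3a and Ces3b, a pair of abundant liver esterases, varied more between livers than between groups. Ces3a stood at 2641, 2669.9, 2079 and 1505 CPM in the saline livers, and the treated ones had 2093, 1317 and 2316 CPM. The lowest saline and the lowest treated liver lay well under their groups, and the log2 fold change was -0.22 (95% interval -0.80 to 0.36). Without PX-478 2 it was -0.013 and without PX-478 3 it was -0.38. Ces3b stood at 769.5, 701, 1015 and 804.5 CPM in the saline livers, and PX-478 livers had 559, 1329 and 445 CPM. PX-478 2 had the highest Ces3b and the lowest Ces3a of all livers. The log2 fold change of Ces3b was -0.081 (SE 0.33), and without PX-478 2 it was -0.71 (unadjusted p = 0.0106, adjusted p = 0.442 in edgeR). The sum of Ces3a and Ces3b was 2646 to 2760 CPM in the 3 treated livers and 2309 to 3411 CPM in saline.

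The counts of close copies are uncertain, because the read length and the treatment of reads with several matches are unstated in the sources used here. Ces3a and Ces3b transcripts were 95.4% identical, and 30.9% of the 50-base windows of Ces3a occurred exactly in another gene, all of them in Ces3b. Ces1b and Ces1c were 91.4% identical, and 11.6% of the Ces1b windows occurred elsewhere. For Ces1d, Ces1e, Ces1f and Ces1g that share was between 1.28% and 3.21%. For Ces2a it was 22.2%, mostly with the pseudogene Gm7208. The sum of Ces1b and Ces1c, which does not depend on how reads were divided within that pair, was 1060 to 1400 CPM in saline and 1325 to 1405 CPM in PX-478. Saline 3 had the 1400 CPM, and the other saline livers had 1060 to 1125. Most of the sum was Ces1c, at 1059.6 CPM in saline (SD 139) against 105.5 for Ces1b. The sum therefore says little about Ces1b alone.

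**Figure D3:**
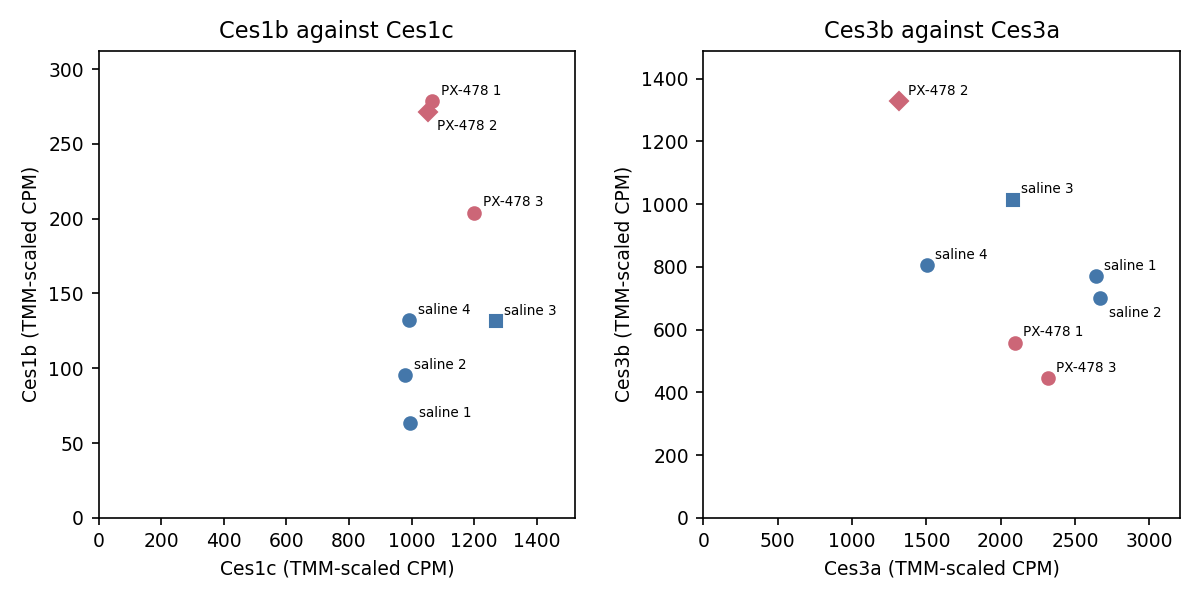
Each library's TMM-scaled CPM for Ces1b against Ces1c (left) and Ces3b against Ces3a (right), saline in blue and PX-478 in red. On the left the treated livers sit higher at similar Ces1c. On the right PX-478 2 sits alone at the upper left.

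Ratios between members remove any factor common to a whole library. Over all 45 pairs, an exact two-sided permutation test over the 35 assignments of livers to groups gave the smallest p it allows, 0.0286, for 3 pairs. All 3 held Ces1b, set against Ces1c, Ces2e or Ces3b. They share that gene, the member with the lowest unadjusted p in edgeR, so they are not independent of each other. By chance a single pair reaches 0.0286 in 1 of the 35 assignments, and 45 pairs were examined. After Benjamini-Hochberg adjustment over the 45 pairs the lowest value was 0.203. With this number of livers a few pairs at the smallest p cannot pass that adjustment, so the adjusted values do not bear on single ratios.

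Per kb of transcript, Ces3a was the most abundant member in saline, at 1087 ± 269 CPM per kb (SD, n = 4), followed by Ces1c at 580 ± 76.3 and Ces3b at 342 ± 56.2. These 3 levels did not overlap with each other, nor Ces3b with the next. From Ces2a at 99.5 down through Ces1f, Ces1d, Ces1b, Ces1e and Ces1g to Ces2e at 9.37 CPM per kb, each gene overlapped with its neighbour. In PX-478 livers the first 3 were again Ces3a (933), Ces1c (606) and Ces3b (324 CPM per kb), but Ces3a now overlapped with Ces1c. Ces1d was 4th at 257 ± 102 and Ces1b was 5th at 128 ± 21.0 CPM per kb (SD, n = 3), where they had been 6th and 7th in saline. From Ces3b through Ces1d, Ces1b and Ces1f to Ces2a, each gene overlapped with its neighbour in PX-478, so these ranks are not resolved.

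As a share of the family's summed CPM per kb, the Ces1 members held 30.3% to 41.8% in saline and 44.7% to 48.4% in PX-478. Ces3a and Ces3b held 53.7% to 64.3% in saline and 47.2% to 51.8% in PX-478. Neither pair of ranges overlapped. Shares are parts of a whole, and the Ces2 members held only 4.58% in saline and 4.3% in PX-478 on average. A larger Ces1 share therefore goes with a smaller Ces3 share, and these are not separate results. The summed CPM of Ces3a and Ces3b overlapped between the groups. Ces1d alone went from 3.13% ± 2.02 (SD, n = 4) to 9.86% ± 3.37 (SD, n = 3). The summed CPM of all 10 members was 4844 ± 534 in saline and 5188 ± 357 in PX-478, a difference within the spread between livers.

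**Figure D4:**
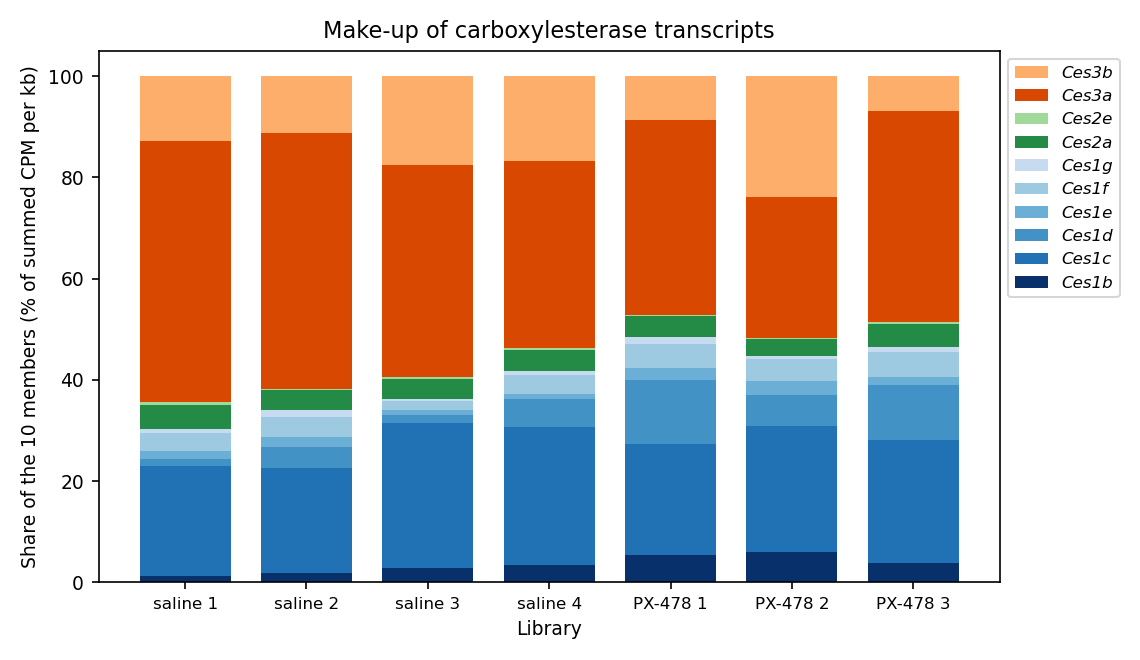
Share of each member in the summed CPM per kb of the 10 members, 1 stacked bar per library, in percent from 0, with Ces1 genes in blue, Ces2 genes in green and Ces3 genes in orange. The blue part of the bar is larger in each of the 3 PX-478 livers than in any saline liver.

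The carboxylesterases outside the member list had lower values in PX-478 in all 5 cases tested. Ces2d-ps, a transcribed pseudogene, stood at 67.2, 48.0, 49.9 and 64.8 CPM in the saline livers, and the treated ones had 16.4, 41.6 and 28.5 CPM, without overlap. Its log2 fold change was -0.995 (SE 0.28, unadjusted p = 0.00351, adjusted p = 0.454 in edgeR), but 76.9% of its 50-base windows occur in other genes. Ces2c, which hydrolyses acylcarnitines, differed by -0.96 on the log2 scale (SE 0.35, adjusted p = 0.602 in edgeR) with overlapping groups. Of its 50-base windows 42.2% occur in other genes, and 38.2% occur in Ces2d-ps. Whether reads were shared between Ces2c and Ces2d-ps was not tested. Ces2g was at -0.32. Ces2b and Ces4a had 0 to 61 and 0 to 70 reads, with log2 fold changes of -0.60 (SE 1.57) and -0.85 (SE 0.87). Ces1a, with 0 to 10 reads, and Ces2h, with 0 to 14, were below the filter. Ces1h, Ces2f and Ces5a were not among the 14889 genes with deposited counts. Beside the Ces2 and Ces3 array, the unrelated Ciao2b was at -0.26 and Cbfb at 0.37.

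Other genes of lipid and drug ester metabolism were taken from 6 lists with 77 tested genes, of which 0 passed at an adjusted p of 0.05. At an unadjusted p under 0.05 in edgeR there were 10 of them, where 6.97% of all genes were under it. Among 15 neutral lipid hydrolases, 10 had higher values and the median log2 fold change was 0.16. Abhd6, a monoacylglycerol lipase, was the only one of them under an unadjusted p of 0.05. It stood at 18.4 to 28.4 CPM in saline and 33.0 to 47.8 CPM in the treated livers, a log2 difference of 0.78 (SE 0.21, adjusted p = 0.433 in edgeR). Pnpla2, adipose triglyceride lipase, was at 0.32. Among 13 other hydrolases of drug esters, 9 had lower values (median -0.18), with Esd, an S-formylglutathione hydrolase, at -0.42 and Pon2, a lactonase, at -0.57 on the log2 scale. Pnpla2 and Pon2 overlapped between the groups, and Esd did not.

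Among 12 genes of VLDL assembly, 8 had lower values (median log2 fold change -0.34), 4 of them without overlap between groups, against 4.29% of all genes. Their summed level was 7057 to 8235 CPM in saline and 5212 to 6470 CPM in PX-478. Plin2, the lipid droplet coat protein, was at -0.49 and Tm6sf2, which helps load VLDL with lipid, at 0.53. The groups overlapped for Plin2 and for Tm6sf2, so neither is among the 4 genes without overlap. Plin2 was the only lower gene of this list at an unadjusted p under 0.05 in edgeR, so none of those 4 was under it. The 9 tested genes of endoplasmic reticulum retrieval and folding were all lower (median -0.35), with Calr, a lectin chaperone, at -0.83 and Pdia3, a disulfide isomerase, at -0.62. The summed level of the list was 1268 to 3342 CPM in saline and 1044 to 1653 CPM in PX-478. Saline 3 was the highest liver for Calr, at 163 CPM against 80.8 to 92.5 in the other saline livers. It was also the highest for Pdia3, at 570 CPM against 262 to 382 in the other saline livers, and the Pdia3 groups overlapped. Among 13 receptors and factors of liver metabolism, 7 were higher and 6 lower (median 0.012), with the bile acid receptor Nr1h4 at 0.61 and the xenobiotic receptor Nr1i2 at 0.48. Among 15 tested targets of xenobiotic receptors, 11 were higher (median 0.24), with Por, the electron donor of the P450 enzymes, at 0.95 and the P450 enzyme Cyp3a13 at 0.79. Nr1h4, Nr1i2, Por and Cyp3a13 each overlapped between the groups. None of the genes of these lists passed the adjusted test in edgeR, and none of the lists was tested as a set.

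Markers of other cell types were measured in the same libraries. All 7 Kupffer cell markers had lower values in PX-478 (Cd68 -0.91, Vsig4 -0.94 on the log2 scale), with a summed level of 214.7 to 472.7 CPM in saline and 214.7 to 323.7 CPM in PX-478. The 6 adipocyte markers summed to 199.7 to 320.1 CPM in saline and 156.3 to 173.1 CPM in PX-478, and of the 5 tested, 2 had higher and 3 lower values. Cfd, the adipokine adipsin, had 201 to 466 reads in saline and 4 to 10 in PX-478, and Lpl was at -0.63. Lpl was the largest part of the adipocyte sum, at 145 to 216 CPM in saline and 83.0 to 139 CPM in PX-478. Cidea had 0 to 12 reads, and Adipoq, Lep, Retn and Plin1 were not among the 14889 genes with deposited counts. The pair of enterocyte markers summed to 184.5 to 377.9 and 66.25 to 227.4 CPM in the same order, with Apoa4 at -1.203 and Fabp2 at -0.32. Most of that sum was Apoa4, at 148 to 346 and 42.9 to 193 CPM. Vil1, Alpi, Sis, Lct and Mep1a were likewise not among the genes with deposited counts. Which cells gave the Apoa4 and Fabp2 reads therefore cannot be told from this pair. The 5 cholangiocyte markers summed to 74.92 to 109.7 and 78.57 to 131.7 CPM, with Spp1 at 0.30 and Sox9 at -0.43. Of the pancreatic acinar markers only Cela1 was measured, at 6.42 to 17.1 and 3.97 to 8.94 CPM. Several Ces2 genes are also expressed in intestine. The part of these levels in the members' values was not tested.

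**Figure D5:**
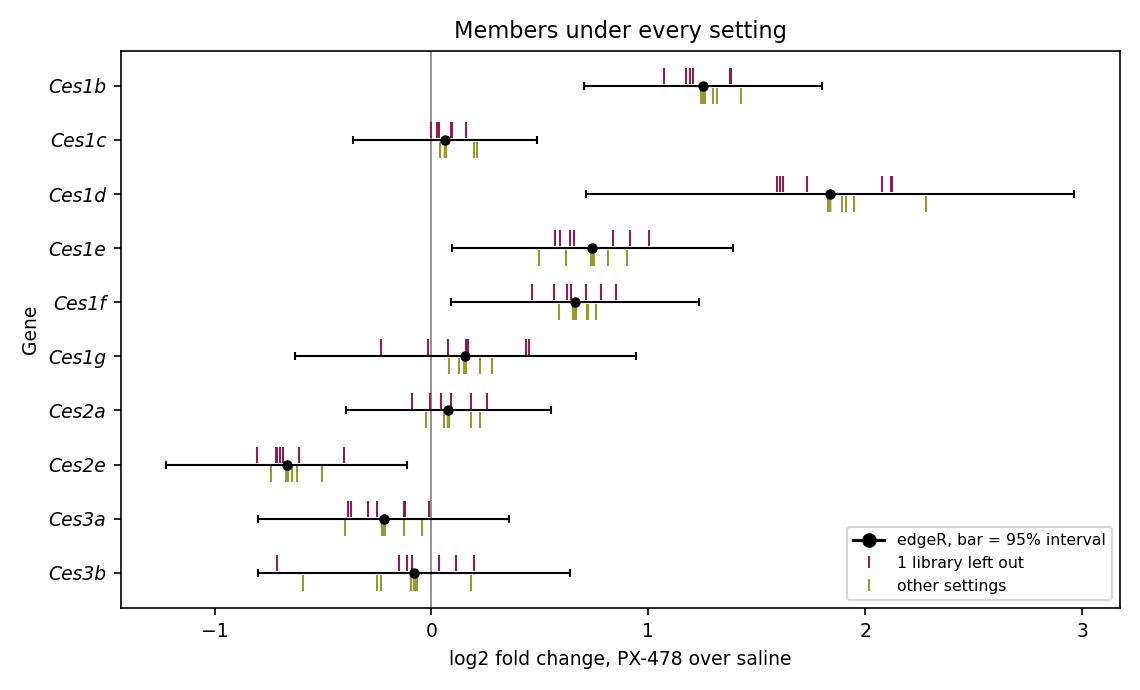
Log2 fold change of each member in edgeR (black point, bar = 95% interval), with 1 library left out (purple ticks) and under the other alternatives (olive ticks), 21 settings in all. The ticks of Ces1b, Ces1d, Ces1e and Ces1f stay above 0 and those of Ces2e and Ces3a below it, while those of Ces1c, Ces1g, Ces2a and Ces3b fall on both sides.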

How the data were processed

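RNA of 7 mouse livers (saline n = 4, PX-478 n = 3) was measured. The authors deposited read counts per gene, in 2 columns per sample, beside log2 fold changes and p-values of their own and the F statistic of their test, a score not used here. The submitters' processing notes name featureCounts, edgeR and mm10. The aligner, read length and use of strand are not given in the sources used here. Both columns of a sample differed by less than sampling noise (chi-square per gene 0.291 to 0.765, against 49.2 to 146 between libraries of a group), so their rounded mean was used as 1 sample. 7 per-sample average columns were not used. Genes were filtered with filterByExpr, scaled by TMM and tested with edgeR 4.0.16 (robust quasi-likelihood, R 4.3.3), with Benjamini-Hochberg adjustment and a threshold of 0.05. DESeq2 1.42.0 and limma 3.58.1 (voom), other scalings and filters, and leaving out libraries were the alternatives. The members and gene lists were chosen with earlier results of these data known. Members are all named. From each other list, the genes at an unadjusted p under 0.05 are named and, where fewer than 2 were, the 2 with the lowest p. Transcript lengths came from GENCODE and promoters from RefSeq GRCm38.p6. The detection floor covers counting error only.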

Additional observations from a re-analysis of the deposited data

Results flagged for a closer look

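Ces1c in saline 3 stood at 1269 CPM, while the other 3 saline livers lay between 981 and 996 CPM. Its distance to the next liver, relative to the range of the group, was beyond Dixon's 95% critical value for 4 samples. The 10 members were examined this way in the saline group, and chance alone exceeds that value in about 1 of 20 groups. Saline 3 was also the library that lay apart on the first principal component.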

How the results depend on the processing

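Over the 21 alternatives, the sign of the log2 fold change held in all of them for Ces1b, Ces1d, Ces1e, Ces1f, Ces2e and Ces3a. The count of genes past the adjusted threshold was small and moved with the setting, from 0 higher and 1 lower in the reported analysis. It was 46 higher and 36 lower with DESeq2, where 2 members were higher, 0 lower with limma-voom, and 4 higher with library totals alone. Library totals alone moved the median log2 fold change of all genes to 0.145, and then 0 members were lower at an unadjusted p under 0.05 and Ces3b was at 0.18. Leaving out 1 library gave 0 to 4 genes higher and 1 to 3 lower. It gave 2 to 4 members higher at an unadjusted p under 0.05 (2 without saline 3, saline 4 or PX-478 1) and 0 to 2 lower (0 without saline 1 or PX-478 1, 2 without PX-478 2). Leaving out 1 library moved Ces1c between -0.000188 and 0.16, Ces1g between -0.23 and 0.45, Ces2a between -0.089 and 0.26, Ces3a between -0.38 and -0.013 and Ces3b between -0.71 and 0.20. Leaving out saline 3 and PX-478 2 together, an alternative chosen after seeing the data, gave 9 genes higher and 6 lower, with 2 members lower at an unadjusted p under 0.05. No pairing by replicate number was evident. Deviations of same-numbered samples correlated at -0.021, -0.074 and -0.002, against -0.079 to 0.173 for samples of unlike number. These correlations cannot exclude a shared batch. With the replicate block, 1 gene was higher and 2 lower, 3 members were higher and 0 lower at an unadjusted p under 0.05, Ces1f no longer among them, and Ces2a was at -0.027. The causes of these shifts were not tested. The lowest count of a member in any library was 202 reads, and the effect of depth on the calls was not tested.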

Other observations

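The genes whose pattern over the 7 livers was most like that of Ces1b, among 11560 genes compared, were Ecm1 (Pearson r = 0.978), Aen (r = 0.9746), Pfkfb1 (r = 0.974), Smap1 (r = 0.967) and Dhx57 (r = 0.959). Pfkfb1, the liver enzyme that sets fructose 2,6-bisphosphate, differed by 1.02 on the log2 scale (SE 0.22). The gene most like the mean pattern of the members was Pdk1, a kinase that inhibits pyruvate dehydrogenase, with r = 0.999 and a log2 difference of 0.90 (SE 0.24), followed by Dmac2, Limk2, Nup54 and Fancc with r from 0.980 down to 0.971. With 7 libraries and 11560 genes searched, high coefficients are found for many genes, so these are descriptions without a test.

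Dbp, Tef, Hlf and Nfil3, which are known to bind the D-box, were looked up after their values could be seen. Dbp stood at 42.1 to 76.1 CPM in saline and 90.9 to 152 CPM in the treated livers (1.04 on the log2 scale, SE 0.24, adjusted p = 0.264 in edgeR). Tef stood at 181 to 295 CPM in saline and 396 to 587 CPM in the treated livers (1.196 on the log2 scale, SE 0.22, adjusted p = 0.139 in edgeR). The groups did not overlap for either gene. Hlf was at -0.14 and Nfil3 at -0.31 with overlapping groups. Their part in the levels of the Ces1 genes was not tested, and the labels used here give no time of day for the collection of the livers.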
